A study of Mus musculus with 4 samples.

Results

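The CHD remodellers are chromatin enzymes that use ATP to slide, space or exchange nucleosomes, and each carries chromodomains beside a helicase-like motor. CHD1 and CHD2 act at transcribed genes, CHD3, CHD4 and CHD5 are alternative motors of the NuRD complex, which couples remodelling to histone deacetylation, and CHD6, CHD7, CHD8 and CHD9 form a further branch that works at enhancers and promoters. ATRX, a related motor, places the variant histone H3-3 in heterochromatin and at repeats together with DAXX. Mutations in several of these genes cause neurodevelopmental disorders in people. The 10 genes *Chd1* to *Chd9* and *Atrx* were picked by gene name out of 56883 genes in the deposited table, with earlier results of these data known. All 10 passed the filter on low values, which 14323 genes did.

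RNA was measured at E14.5, in mid-gestation, in tdTomato-positive cells sorted by flow cytometry from the basal telencephalon, the ventral forebrain where cortical interneurons arise. Control cells came from *Sst-Cre/tdTomato* embryos and *Dnmt1* KO cells from *Sst-Cre/tdTomato/Dnmt1 loxP2* embryos, so both groups carried the *Sst-Cre* driver and the tdTomato reporter, and the groups differed in the floxed alleles of *Dnmt1*, the gene of a DNA methyltransferase. Cre is driven from the *Sst* locus, so deletion follows somatostatin expression in cells that have left the cell cycle. Each group had 2 libraries, each made from cells of several pooled embryos of a C57BL/6J background, and the sexes were not separated. The comparison asks how loss of *Dnmt1* changes gene expression in young SST+ interneurons.

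The libraries held 6970247 to 8376711 recovered reads on genes, and 0.359% to 0.392% of them lay on the 10 genes. A normalized count is a number of reads divided by the size factor of its library. The targeted gene *Dnmt1* had 2238 and 2341 normalized counts in control and 2164 and 2210 in *Dnmt1* KO libraries (log2 fold change -0.066, limma adjusted p = 0.461), and these counts, taken over the full gene, can hold transcripts both with and without the floxed exons. Interneuron markers were present and summed to 26838 and 26856 normalized counts in control and to 40746 and 41418 in *Dnmt1* KO libraries, with 13 of 14 called higher and none at 0. Markers of other cells moved the other way, as 16 progenitor and cell cycle genes summed to 18416 and 18192 normalized counts in control and to 11656 and 11853 in *Dnmt1* KO libraries, with 13 called lower and 1 higher. For 9 excitatory lineage genes the sums were 3513 and 3540 in control and 2000 and 1849 in *Dnmt1* KO libraries, with 7 called lower. For 10 blood genes they were 2610 and 2433 against 587 and 592, with all 8 tested called lower, and for 10 vascular and microglial genes 563 and 582 against 237 and 284, with 7 of 8 tested called lower. No gene of these lists was at 0 in every library. The part of this shift in the results on the 10 genes was not tested, and in sorted bulk cells fewer cells of a type and less RNA per cell cannot be told apart.

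The 10 genes are long and scattered over the genome (GRCm39). *Chd1* lies on chromosome 17 (15925164 to 15992874), *Chd2* on 7 (73076386 to 73191578), *Chd3* on 11 (69234088 to 69260252), *Chd4* on 6 (125072944 to 125107554) and *Chd5* on 4 (152423077 to 152474651). *Chd6* lies on chromosome 2 (160788888 to 160951119), *Chd7* on 4 (8690406 to 8868738), *Chd8* on 14 (52435550 to 52495267), *Chd9* on 8 (91554934 to 91781527) and *Atrx* on X (104841131 to 104973014). Their transcripts measured 6718 to 12485 bp, against a median of 3815 bp for the 12278 protein-coding genes tested. All were longer than at least 84.7% of those genes. The GC content of the *Atrx* transcript, 39.5%, was in the lowest 3.07% of tested protein-coding genes, while *Chd5*, at 57.4%, and *Chd3*, at 56.2%, were the richest of the 10.

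Related genes can share reads, and the sequences show how far this was possible here. No stretch of 75 bases, the read length, in the transcript of one of the 10 genes occurred in another of them. The longest stretch shared by any of the 45 pairs was 35 bases, in the coding sequences of *Chd3* and *Chd4*, and the median pair shared 17. The window around that stretch is shown because it holds the longest run common to 2 of the 10 genes, with the 10 bases of *Chd3* and the 13 bases of *Chd5* that differ from *Chd4* in capitals (5′ to 3′, from the GENCODE transcripts):
Chd4: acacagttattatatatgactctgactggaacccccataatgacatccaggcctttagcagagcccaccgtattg
Chd3: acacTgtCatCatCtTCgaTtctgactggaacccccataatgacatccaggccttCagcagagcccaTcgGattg
Chd5: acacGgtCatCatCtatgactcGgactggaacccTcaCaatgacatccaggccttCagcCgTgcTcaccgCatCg
Outside the family, 489 of the 75-base stretches of *Chd2* (5.43%) also belonged to *Chaserr*, a noncoding RNA gene of the same strand that overlaps its start, whereas *Chd6* shared 10 and *Chd8* 4 with a gene of no known function each. Apart from *Chaserr* and *Kcnab2*, the overlapping genes with a row in the deposited table had at most 35.8 normalized counts in any library (*Gm44553*, within *Chd2*).

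The windows before the transcript starts differed widely in CpG dinucleotides, the sites of DNA methylation. In the 200 bases before the start of the reference transcript, *Chd7* had 32 CpG, *Chd1* 27, *Chd6* 22, *Chd5* and *Chd8* 17 each, *Chd3* 14, *Chd4* 12, *Chd9* and *Atrx* 5 each, and *Chd2* 0, where the median of 12278 tested protein-coding genes was 11. At least 10 CpG were present in 7 of the 10 windows and in 59.6% of all windows. Only 1.56% of all windows held as many as that of *Chd7*. Methylation was not measured in these RNA libraries, and a link between CpG number and the direction of change was not tested. The windows of *Chd7*, the gene that fell most, and of *Atrx*, the gene that rose most, are shown 5′ to 3′ on the strand of the gene, with each CpG in capitals.
Chd7, chr4:8691104-8691303, plus strand: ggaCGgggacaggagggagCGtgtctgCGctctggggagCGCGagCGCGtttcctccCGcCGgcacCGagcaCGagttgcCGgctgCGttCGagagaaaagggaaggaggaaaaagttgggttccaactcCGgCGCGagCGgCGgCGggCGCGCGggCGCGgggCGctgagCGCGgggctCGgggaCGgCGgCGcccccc
Atrx, chrX:104973015-104973214, minus strand: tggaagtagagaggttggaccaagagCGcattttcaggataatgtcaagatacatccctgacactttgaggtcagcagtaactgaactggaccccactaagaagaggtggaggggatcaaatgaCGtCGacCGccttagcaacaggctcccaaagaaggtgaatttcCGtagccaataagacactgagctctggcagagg
The window of *Atrx* lies outside the annotated gene. That of *Chd7* lies inside the annotated gene, which has a further start upstream, and that of *Chd2* lies partly within its gene.

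In control cells the levels of the 10 genes spanned about an order of magnitude per length. *Chd3* was highest at 1032 ± 19.2 (SD, n = 2) normalized counts per kb of transcript, followed by *Chd4* at 904 ± 12.3 (SD, n = 2). *Atrx* came next at 320.5 ± 19.4, then *Chd8* at 252 ± 7.11 and *Chd5* at 200.0 ± 12.3 (SD, n = 2 each). *Chd6* had 143 ± 0.741, *Chd7* 135 ± 2.33, *Chd2* 123 ± 0.0147, *Chd1* 105 ± 13.5 and *Chd9* 102 ± 0.125 normalized counts per kb (SD, n = 2 each). Of the neighbours in this order, *Chd1* and *Chd9* overlapped between libraries and the other pairs did not. The first 6 places were the same in *Dnmt1* KO cells, but *Chd7* went from place 7 to 9 and *Chd9* from 10 to 8, with *Chd2* in place 7 and *Chd1* in place 10.

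**Figure D1:**
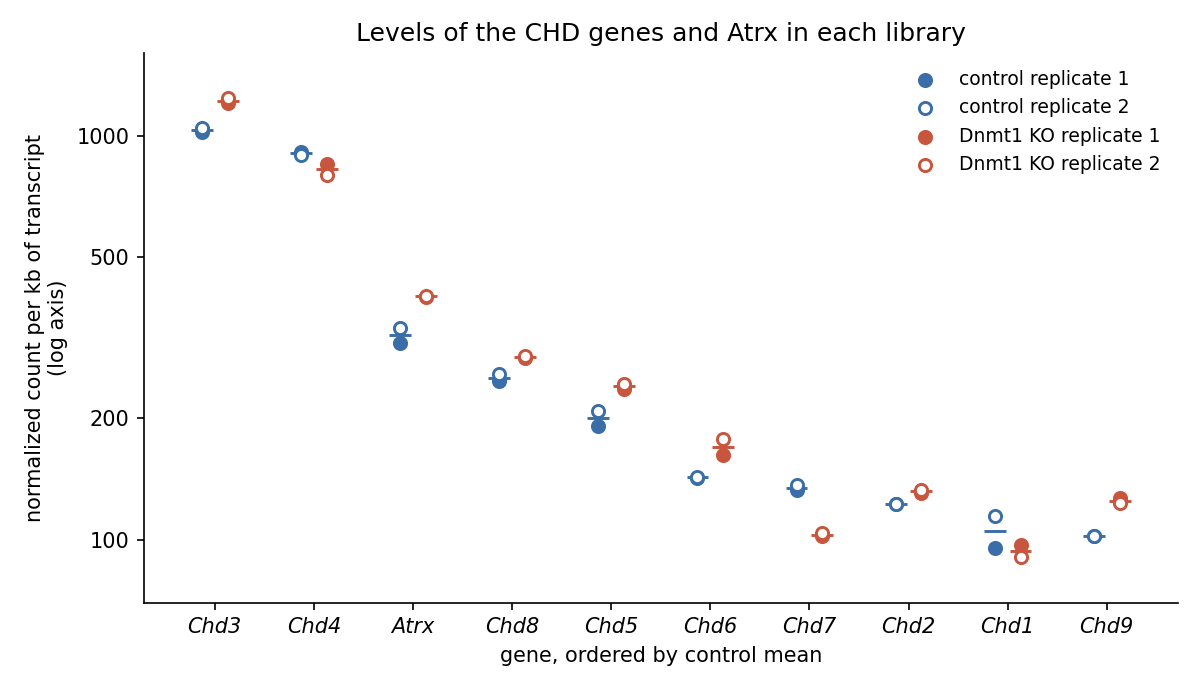
Normalized counts per kb of transcript (log axis) of the 10 genes in each library, with control in blue, *Dnmt1* KO in red, filled and open points for replicates 1 and 2 and a line at the mean of each group. *Chd3* and *Chd4* stand highest, and the blue and red points overlap for *Chd1* alone.

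Between genotypes, 6 of the 10 genes were called higher in *Dnmt1* KO cells (*Chd3*, *Chd5*, *Chd6*, *Chd8*, *Chd9* and *Atrx*), 1 was called lower (*Chd7*) and 3 were not called (*Chd1*, *Chd2* and *Chd4*). The calls are those of limma with Benjamini-Hochberg adjustment over all 14323 genes at 0.05. It called 17.3% of all genes, made up of 8.3% of all genes called higher and 8.99% called lower. Log2 fold changes are differences of log2(normalized count + 1), *Dnmt1* KO minus control. Because long transcripts were on the whole higher in *Dnmt1* KO libraries, each gene was also tested after a smooth curve over transcript length and GC content had been subtracted from each library, and these values are given as those without the length and GC trend. Count models (edgeR, DESeq2 and limma-voom) were run on the recovered reads. The median log2 fold change of the 10 was 0.21, against -0.0033 for all genes tested. Their summed normalized count was 26876 and 27698 in control and 29769 and 29880 in *Dnmt1* KO libraries. The libraries of the genotypes did not overlap for 9 of the 10 genes, which was also so for 57.4% of all genes tested. The changes were small, the largest being 24.9% up and 23.6% down. The libraries are pools of embryos, so the p-values do not measure the spread between single embryos. Limma's p-values combine a gene's spread between pools with a variance trend over genes of similar level. Without that trend, limma called 0 of 14323 genes. For a single gene, an exact permutation test with 2 against 2 libraries cannot go below 0.333.

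**Figure D2:**
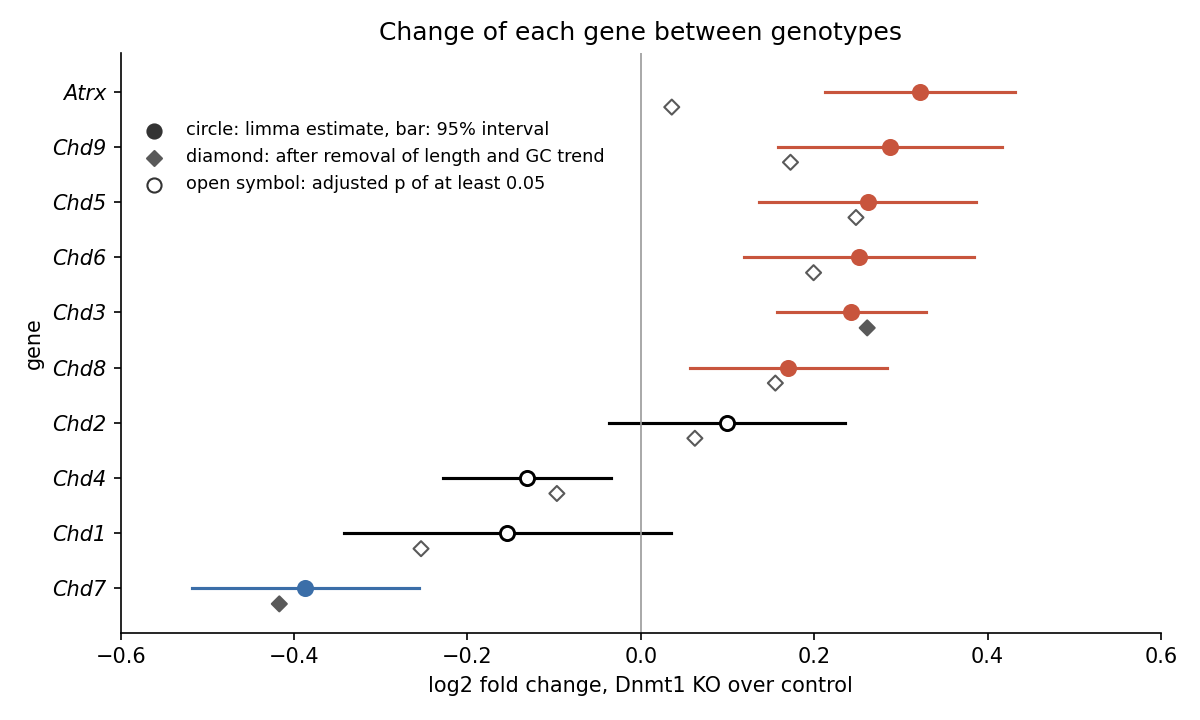
Log2 fold change of each of the 10 genes, *Dnmt1* KO over control, with limma's estimate (circles), its 95% interval (bars) and the estimate without the length and GC trend of each library (diamonds). Open symbols have an adjusted p of at least 0.05 from limma, and *Atrx* moves most between circle and diamond, from 0.32 to 0.036.

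Among the NuRD motors, *Chd3* and *Chd5* rose in *Dnmt1* KO cells while *Chd4* did not. *Chd3* had 7426 and 7624 normalized counts in control and 8786 and 9025 in *Dnmt1* KO libraries. Both *Dnmt1* KO libraries lay above both controls, by 18.3% on average (log2 fold change 0.24, standard error 0.040, limma adjusted p = 0.000646). This call held with each library left out, with DESeq2 (adjusted p = 3.7e-05) and without the length and GC trend (log2 fold change 0.26, limma adjusted p = 0.00984). *Chd5*, the motor best known from differentiating neurons, had 1822 and 1988 normalized counts in control and 2254 and 2310 in *Dnmt1* KO libraries. Its libraries did not overlap either, and its level was higher by 0.26 on the log2 scale (standard error 0.059, limma adjusted p = 0.00602). The call of *Chd5* was lost without control replicate 1, the lower control (limma adjusted p = 0.0584), and without the length and GC trend, although the log2 fold change stayed at 0.25 there (limma adjusted p = 0.0752). The end of *Chd5* overlaps *Kcnab2* on the opposite strand, which had 91.8 to 150 normalized counts. *Chd4*, the main NuRD motor of dividing cells and also a part of the ChAHP complex, had 6132 and 6016 normalized counts in control and 5729 and 5369 in *Dnmt1* KO libraries. Both *Dnmt1* KO libraries were lower, but the log2 fold change of -0.13 (95% interval -0.23 to -0.034) did not pass the threshold (limma adjusted p = 0.0603). It did pass with limma-voom (adjusted p = 0.0358), with quantile normalization (adjusted p = 0.00714, limma) and without *Dnmt1* KO replicate 1 (adjusted p = 0.0421, limma). It did not with DESeq2 (adjusted p = 0.146), without the length and GC trend (log2 fold change -0.097, limma adjusted p = 0.288) or without *Dnmt1* KO replicate 2, where the log2 fold change was -0.084 (limma adjusted p = 0.438).

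The split among the NuRD motors within a library does not depend on the scaling between libraries. Of the normalized counts per kb of *Chd3*, *Chd4* and *Chd5*, *Chd4* made up 43.0% and 41.7% in control libraries and 37.2% and 35.1% in *Dnmt1* KO libraries. Its share thus dropped by 6.22 percentage points in *Dnmt1* KO cells, and the libraries did not overlap. The share of *Chd3* was 48.0% and 48.6% in control and 52.5% and 54.3% in *Dnmt1* KO libraries, and that of *Chd5* 9.02% and 9.71% against 10.3% and 10.6%. For each of the 3 shares, the two-sided exact permutation test gave the smallest p it can reach here, 0.333. With each library left out, the difference in the share of *Chd4* was -7.27 to -5.16 points and that of *Chd5* 0.77 to 1.47 points.

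**Figure D3:**
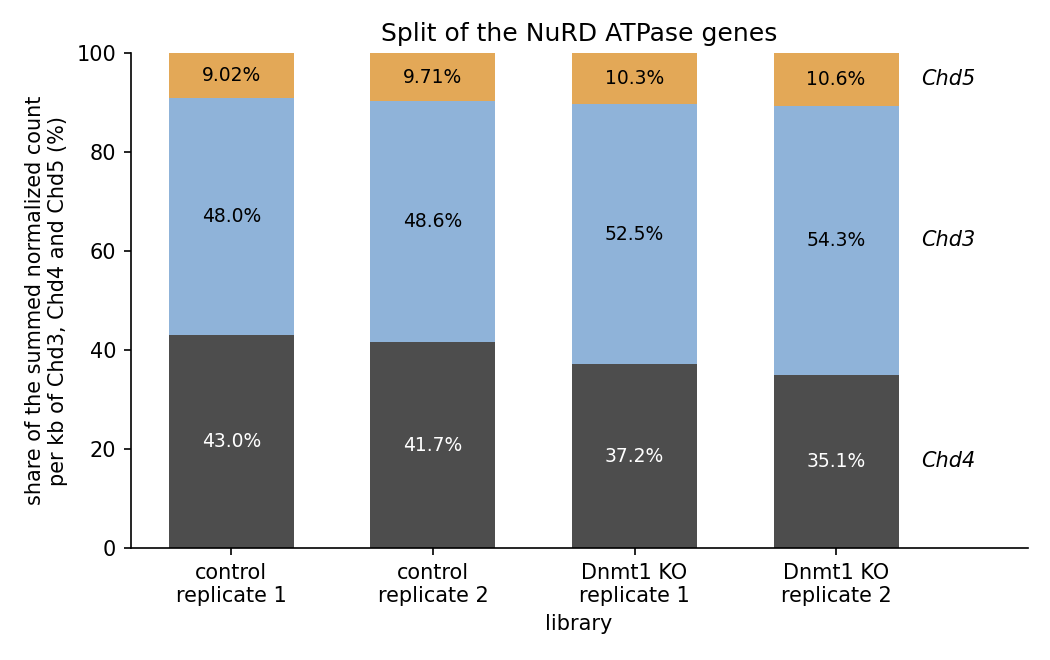
Share of each gene in the summed normalized counts per kb of *Chd3*, *Chd4* and *Chd5*, 1 stacked bar per library. *Chd4*, in dark grey, takes 43.0% and 41.7% in the controls and 37.2% and 35.1% in the *Dnmt1* KO libraries.

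The other subunits of NuRD did not follow *Chd3* and *Chd5*. Of 12 partner genes, 6 were called lower and 0 higher by limma, with a median log2 fold change of -0.19, where 8.3% of all genes tested were called higher and 8.99% lower. None rose at an unadjusted p below 0.05 (0 of 12), and DESeq2 and edgeR called 0 higher too, while DESeq2 called 3 lower. The progenitor and cell cycle markers, of which 13 of 16 were called lower, fell in the same libraries, and their part in the change of these partners was not tested. *Cdk2ap1*, a small subunit, had 794 and 915 normalized counts in control and 633 and 660 in *Dnmt1* KO libraries (log2 fold change -0.40, limma adjusted p = 0.00384). *Hdac1*, a deacetylase, went from 445 and 467 to 338 and 368 (log2 fold change -0.37, limma adjusted p = 0.0157). *Mbd3*, the methyl-CpG-binding-domain subunit, went from 1317 and 1342 to 930 and 1165, which differ more between the *Dnmt1* KO libraries than between the controls (log2 fold change -0.35, limma adjusted p = 0.0106). The others called were *Rbbp7*, a histone chaperone (-0.34), *Mta1*, a scaffold subunit (-0.27), and *Gatad2a*, which links the deacetylase and motor parts (-0.26). Each of the 6 calls was lost in at least 1 fit that left out a library, and 1 partner was called lower without control replicate 2 and 2 without *Dnmt1* KO replicate 1. Without the length and GC trend, 3 remained lower. *Hdac2*, the other deacetylase of the complex, had a log2 fold change of -0.030 (limma adjusted p = 0.762), *Mbd2* of -0.092, *Rbbp4* of -0.13 and *Mta3* of 0.22, with limma adjusted p from 0.1996 to 0.762.

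*Chd1* and *Chd2*, the motors tied to transcription elongation, were not called. *Chd1* had 762 and 915 normalized counts in control and 777 and 724 in *Dnmt1* KO libraries, so that the genotypes overlapped, and its log2 fold change was -0.15 (95% interval -0.34 to 0.035, limma adjusted p = 0.266). It moved most with the controls, being -0.29 without control replicate 1 and -0.023 without control replicate 2. *Chd2*, an epilepsy gene, had 1118 in both controls and 1189 and 1207 in *Dnmt1* KO libraries. Its log2 fold change was 0.0998 (95% interval -0.037 to 0.24, limma adjusted p = 0.324). *Chaserr*, which is transcribed next to *Chd2* and is known to restrain its expression, had 319 and 253 normalized counts in control and 328 and 271 in *Dnmt1* KO libraries, a difference within the spread of each group (log2 fold change 0.069, limma adjusted p = 0.778). Reads from the stretch that *Chd2* and *Chaserr* share cannot be told apart.

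*Chd7* fell, while the 3 other members of its branch rose. It had 1513 and 1551 normalized counts in control and 1161 and 1181 in *Dnmt1* KO libraries, a fall far beyond the spread within each group (23.6% lower, log2 fold change -0.39, standard error 0.062, limma adjusted p = 0.000451). *Chd7* is the CHARGE syndrome gene and is known for its role in neural stem and progenitor cells. The call held with each library left out (log2 fold change -0.40 to -0.37), with DESeq2 (adjusted p = 0.000216) and without the length and GC trend (-0.42, limma adjusted p = 0.0139). In the same libraries *Mki67*, a marker of dividing cells, went from 2553 and 2500 to 1826 and 1755 normalized counts (log2 fold change -0.50) and *Hes5*, a Notch target of radial glia, from 156 and 153 to 98.6 and 74.3 (log2 fold change -0.84). *Sox2*, also a gene of progenitors and the one gene of that list called higher, named here after its values were seen, went the other way, from 1085 and 1055 to 1429 and 1390 (log2 fold change 0.40, limma adjusted p = 0.00048). The part of these cells in the fall of *Chd7* was not tested.

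*Chd6*, *Chd8* and *Chd9*, the close relatives of *Chd7*, were each called higher. *Chd9* had 1277 and 1279 normalized counts in control and 1583 and 1537 in *Dnmt1* KO libraries, a rise of 22.1% (log2 fold change 0.29, standard error 0.061, limma adjusted p = 0.00396) that held with each library left out. *Chd6* had 1522 and 1533 in control and 1736 and 1907 in *Dnmt1* KO libraries. Its log2 fold change of 0.25 (standard error 0.062, limma adjusted p = 0.011) leaned on the higher *Dnmt1* KO library, without which the adjusted p was 0.140 (log2 fold change 0.18). *Chd8*, a leading autism gene, had 2122 and 2208 in control and 2420 and 2452 in *Dnmt1* KO libraries, a rise of 12.5% (log2 fold change 0.17, standard error 0.053, limma adjusted p = 0.0392). This was the least secure of the calls, since it was lost with each library left out (largest adjusted p 0.169, limma) and with DESeq2 (adjusted p = 0.106). Without the length and GC trend, none of these 3 was called, with log2 fold changes of 0.17 for *Chd9*, 0.20 for *Chd6* and 0.16 for *Chd8* and limma adjusted p of 0.191, 0.134 and 0.141.

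*Atrx* rose most of the 10. It had 3181 and 3466 normalized counts in control and 4135 and 4168 in *Dnmt1* KO libraries, 24.9% higher with no overlap (log2 fold change 0.32, standard error 0.052, limma adjusted p = 0.000479). The call held with each library left out (log2 fold change 0.26 to 0.38), with DESeq2 (adjusted p = 2.18e-05) and after removal of a trend over genomic span (0.31, limma adjusted p = 0.00648). Without the length and GC trend, however, its log2 fold change was 0.036 (limma adjusted p = 0.736). *Atrx* is X-linked, and *Xist*, the RNA of the inactive X chromosome, named here after its values were seen, had 1402 and 1360 normalized counts in control and 3428 and 3311 in *Dnmt1* KO libraries. The 4 Y-linked genes of the same list, likewise named after their values were seen, had log2 fold changes of -0.31 (*Ddx3y*), -0.27 (*Uty*), -0.19 (*Eif2s3y*) and -0.096 (*Kdm5d*). None was called (limma adjusted p of 0.229 or more), although *Ddx3y* and *Uty* were called lower without the length and GC trend (limma adjusted p = 0.00984 and 0.0115). In that fit the median log2 fold change of the 5 genes of the list, *Xist* included, was -0.51, against -0.19 in the main fit. The part of a difference in sex between the pools in the rise of *Atrx* was not tested. The other 431 tested protein-coding genes of the X chromosome had a median log2 fold change of 0.00093, with 5.8% called higher and 9.74% lower, against -0.017, 7.93% and 9.13% for 11829 autosomal genes.

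The partners of ATRX and of CHD4 in ChAHP did not rise with *Atrx*. Of 10 genes tested, 0 were called higher and 2 lower by limma, with a median log2 fold change of -0.0055, beside 8.3% and 8.99% of all genes tested. None rose at an unadjusted p below 0.05 (0 of 10), DESeq2 and edgeR called 0 higher too, and DESeq2 made 1 of the 2 lower calls. Without the length and GC trend, the median of these partners was -0.085, with 0 called higher and 2 lower, and *Atrx* itself had a log2 fold change of 0.036. *Daxx*, the chaperone that acts with ATRX, had 398 and 353 normalized counts in control and 397 and 393 in *Dnmt1* KO libraries (log2 fold change 0.074, limma adjusted p = 0.672). The H3-3 genes *H3f3a* and *H3f3b* had log2 fold changes of -0.10 and 0.0066, and *Adnp*, which joins CHD4 and HP1 in ChAHP, of 0.10 (limma adjusted p = 0.143, 0.944 and 0.289). The 2 genes called lower encode HP1 proteins, readers of methylated histone H3. *Cbx3* went from 1729 and 1738 to 1470 and 1372 (log2 fold change -0.29, limma adjusted p = 0.00416), a call that held with each library left out, and *Cbx1* from 683 and 718 to 578 and 579 (log2 fold change -0.27, limma adjusted p = 0.0258), a call that held in 1 of 4 such fits and not with DESeq2 (adjusted p = 0.141). The other HP1 gene, *Cbx5*, had a log2 fold change of -0.0067, and the corepressor genes *Trim28* and *Setdb1* of -0.0042 and -0.10 (limma adjusted p of 0.475 or more).

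The length and GC content of the 10 genes bear on how their changes are read. Over all annotated genes tested, a doubling of transcript length went with a log2 ratio higher by 0.0537 to 0.056 when a *Dnmt1* KO library was set against a control, and by no more than 0.00172 when 2 libraries of a genotype were compared. Among the 1718 tested protein-coding genes with transcripts as long as those of the 10, the median log2 fold change was 0.095, and 22.9% were called higher and 8.38% lower, compared with 7.86% and 9.19% of all 12278. Without the length and GC trend of each library, the median of the 10 genes was 0.11 instead of 0.21, 1 gene was called higher (*Chd3*) and 1 lower (*Chd7*). That fit called 5.26% of 14285 genes higher and 6.85% lower. All 10 kept their sign in it. Length and GC content were subtracted together there, and the part of each was not tested. *Atrx*, with a GC content in the lowest 3.07%, went from 0.32 to 0.036. The genes with longer transcripts than *Atrx* moved less, *Chd9* from 0.29 to 0.17, *Chd6* from 0.25 to 0.20 and *Chd7* from -0.39 to -0.42. With a trend over genomic span subtracted instead, 5 were called higher and 1 lower, and the call lost was that of *Chd8* (limma adjusted p = 0.0805). Whether the length trend comes from the libraries or from the cells cannot be told apart here, as it separates the genotypes.

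**Figure D4:**
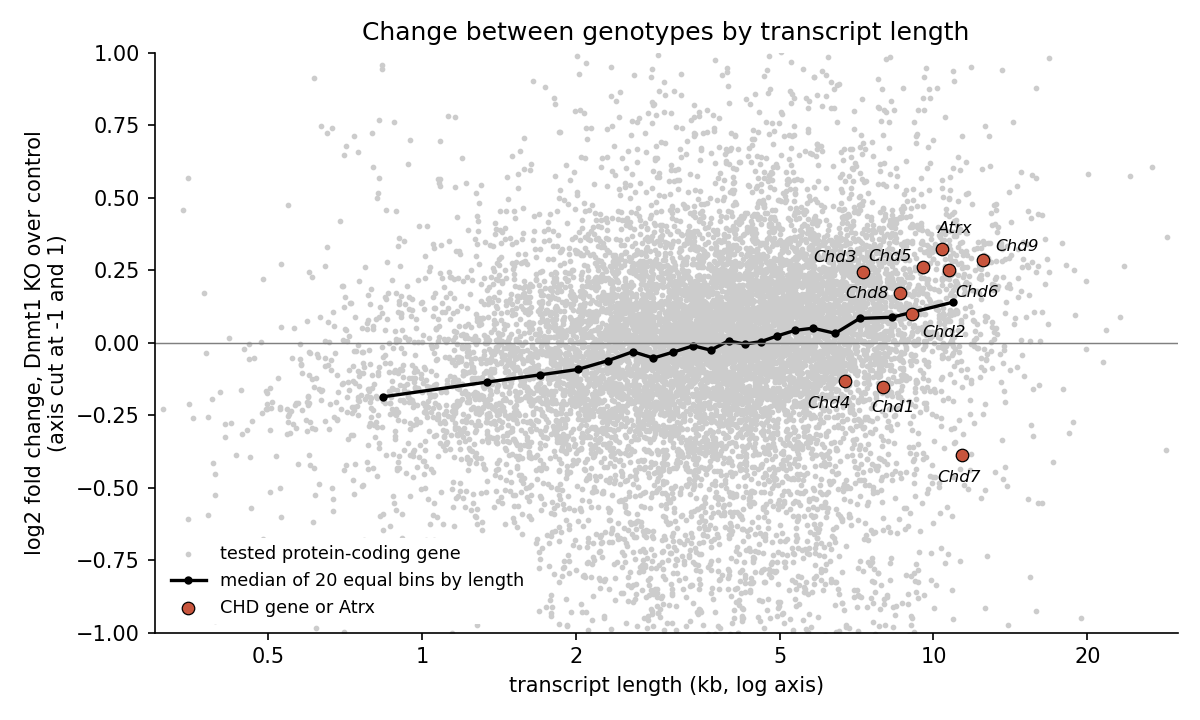
Log2 fold change of 12278 tested protein-coding genes (grey) against transcript length (log axis), with the median in 20 equal bins by length (black line) and the 10 genes in red. The medians run from -0.19 in the shortest bin to 0.14 in the longest, the 6 genes called higher lie above the line, *Chd7* lies farthest below it and 493 genes fall outside the axes.

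Other remodeller families showed no common direction. Of 24 BAF subunit genes, 5 were called higher and 1 lower, with a median log2 fold change of 0.0098. *Bicra* (0.33), *Dpf1* (0.30) and *Arid1b* (0.22) rose most, and *Actl6a*, an actin-like subunit, was called lower (-0.37, limma adjusted p = 0.0462). The call of *Actl6a* was absent with edgeR, DESeq2 and limma-voom. Of 9 ISWI genes, *Bptf* was called higher (0.18) and *Cecr2* (-0.56) and *Baz1a* (-0.53) lower, and of 11 genes of INO80 and SRCAP complexes only *Trrap* was called (0.15, limma adjusted p = 0.0494). Among 12 further SNF2-type ATPase genes, *Btaf1*, which removes TBP from DNA, had 395 and 492 normalized counts in control and 733 and 717 in *Dnmt1* KO libraries (log2 fold change 0.72, limma adjusted p = 0.00015), and *Ercc6*, the transcription-coupled repair gene, was higher too (0.36). *Ttf2* (-0.73) and *Hells* were lower. *Hells*, a remodeller needed for DNA methylation in development, went from 250 and 247 to 159 and 167 normalized counts (log2 fold change -0.61, limma adjusted p = 0.00357), and it kept its call with each library left out. The progenitor and cell cycle markers fell in the same libraries, and their part in the change of *Hells* was not tested. Without the length and GC trend, *Bicra*, *Dpf1*, *Btaf1* and *Hells* kept their calls. Those of *Arid1b*, *Actl6a*, *Bptf*, *Cecr2*, *Baz1a*, *Trrap*, *Ercc6* and *Ttf2* were lost there (limma adjusted p of 0.0538 or more). Over these 4 families, 9 of 56 genes were called higher and 5 lower, shares of a size to be read against the 8.3% and 8.99% of all genes tested. DESeq2 made 6 of these 14 calls, and 3 of the 14 held with each library left out.

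**Figure D5:**
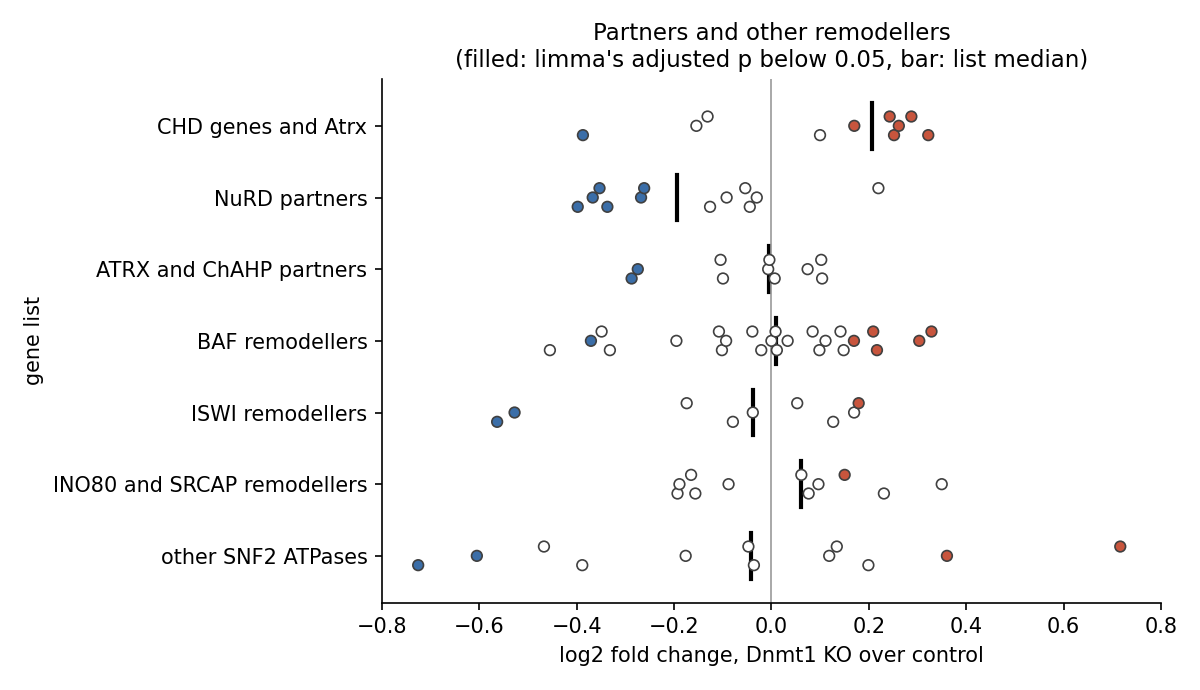
Log2 fold change, *Dnmt1* KO over control, of each gene of 7 lists of remodellers and their partners, 1 point per gene, filled where the limma adjusted p is below 0.05 (red higher, blue lower), with a black bar at the median of the list. The bar stands at 0.21 for the CHD genes and *Atrx* and at -0.19 for the NuRD partners.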

How the data were processed

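Total RNA of sorted E14.5 cells was sequenced after rRNA depletion with a stranded kit as paired-end reads of 75 bases, in 2 control and 2 *Dnmt1* KO libraries. The authors used Trim Galore for trimming, STAR for alignment to GRCm39, Salmon for quantification and DESeq2 for scaling. The annotation release and the use of strand in counting are not given in the sources used here. The deposited values are a signal per gene, namely normalized counts. Every value above 0 (89965 in all) was a whole number of reads times 1 unit per library, to within 0.001 of a read, which gave the recovered reads.

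Tests were run on log2(normalized count + 1) for genes averaging at least 10 normalized counts. Genotype was the only term of the fit, made with limma 3.58.1 in R 4.3.3 (eBayes with a variance trend), and genes with a Benjamini-Hochberg adjusted p below 0.05 were called. Intervals are 95% intervals of that fit, and the pseudocount of 1 understates fold changes of low genes. Positions, lengths and sequences came from GENCODE and the GRCm39 genome, with 1 reference transcript per gene, for 14285 of the 14323 tested genes. Pseudocounts of 0.5 and 10, minimum means of 1 and 50, TMM and quantile normalization, limma without the trend, edgeR 4.0.16, DESeq2 1.42.0 and limma-voom (the last 3 on recovered reads) were tried as alternatives. So were the subtraction of a spline (5 degrees of freedom) over transcript length and GC content, or over genomic span, from each library, a block for the replicate number, and fits without 1 library, in which the remaining library of its group is assumed to vary like the rest. The limma fit on genotype and the subtraction of a smooth trend were checked on simulated data, and the other steps were not. The 10 genes and the lists were chosen with earlier results of these data known. Any of the 10 genes, the NuRD, ATRX and ChAHP partners and *Chaserr* could be named, as could, from each other list, up to 3 called genes per direction by size of log2 fold change. A gene of these lists is not reported here. Markers were given as sums except *Mki67*, *Hes5* and, named after their values were seen, *Sox2* and the sex-linked genes. Tables and figures were made in Python 3.11.15 (pandas 2.3.3, scipy 1.17.1, matplotlib 3.10.9).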

Additional observations from a re-analysis of the deposited data

How the results depend on the processing

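Of 180 combinations of the 10 genes with 18 alternatives, 152 kept the direction and the side of the threshold, 25 kept the direction but lost the call, 3 gained a call (*Chd4*) and none reversed. Limma without the variance trend called 0 of 14323 genes (3339 had an unadjusted p below 0.05) and so 0 of the 10 genes in either direction (3 had an unadjusted p below 0.05). Removal of the length and GC trend left 1 of the 10 genes called higher, or 2 with the replicate block added, and a median log2 fold change of 0.11 in both fits. Quantile normalization called 2 of the 10 genes lower, at a median of 0.15, and limma-voom called 2 lower. DESeq2 called 1327 genes in all. With each library left out, 1525 to 2205 genes were called in all, 4 to 5 of the 10 genes higher and 1 to 2 lower, with a median log2 fold change of 0.17 to 0.23. The cause of these differences was not tested.

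The labels do not say whether libraries with the same replicate number were prepared together. Deviations of same-numbered libraries from their group means had a correlation of 0.0157 over 8418 genes, which does not decide this. With the replicate number as a block, limma called 2957 genes in place of 2476, with 6 of the 10 genes higher and 1 lower as without it. With 2 libraries per genotype, each SD rests on 2 values, and spread between single embryos was not measured.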
